A study of Mus musculus with 6 samples.

Results

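This account follows 47 genes of G protein, cyclic AMP and RGS signalling in cultured mouse airway smooth muscle cells, among 6807 gene or probe rows that could be fitted, 5644 of them with 1 gene symbol. The genes were matched by symbol, under a rule chosen with earlier results of these data known. Families were G protein subunits, RGS proteins, adenylyl cyclases, phosphodiesterases and protein kinase A subunits. A-kinase anchoring proteins, receptor kinases, arrestins and the CREB, CREM and ATF factors were also taken. The genes are covered by 76 printed probes, and all 47 had a value on every array. The rule takes symbols, so it also holds Crebbp, a coactivator, and Crebrf and Crebzf, regulators of other factors. No adrenergic receptor, no stimulatory alpha subunit Gnas, no protein kinase A inhibitor and no Arrb2 was among the rows; these genes are not analysed here. The overexpressed receptor itself could therefore not be used to check the labels.

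The cells grew out of tracheal pieces of 2AR-OE mice (TG in the array titles), which carry extra beta2-adrenergic receptor, and of nontransgenic (NTG) mice. Both were grown in medium with 20% serum, RNA was prepared at passages 8 to 10, and over 90% of such cells stained for smooth muscle actin, per the labels. The labels name no drug given to either group, and not the strain, the age, the promoter of the transgene or any pooling of animals. Each of 6 two-colour arrays set transgenic against nontransgenic RNA: transgenic RNA was in Cy5 on 1A, 1B, 2A and 2B and in Cy3 on 1C and 2C. The array titles carry a number, and the 3 arrays with the same number form a set here, 2 sets in all; the meaning of number and letter is not in the labels. Separate cultures or animals are not named either, so p-values here measure only array-to-array spread, possibly technical.

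Each value is a log2 ratio, and its direction is likely transgenic over nontransgenic, since channel 1 of the 4 majority arrays holds the transgenic RNA. The array titles name the nontransgenic RNA first there, so the reverse reading is possible; every sign below would then turn. The columns of 1C and 2C were taken as already turned to the same direction, which no label states. If they were not, the calls below hold a dye bias, and the dye term holds the transgenic effect; in that reading 0 of the 47 genes passed for the transgene. Array 1C scattered most: the SD over the 47 genes was 0.705 there against 0.295 to 0.558 on the other arrays, and over all rows it was 0.956 there against 0.41 to 0.569. Array 1C held the value farthest from the median of the 6 for 16 of the 47 genes (34.0%), beside 40.6% of all rows. A ratio carries no level, so the order of expression among the genes is unknown. In these bulk samples fewer cells of a type and less RNA per cell cannot be told apart.

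As background, an agonist-bound beta2-adrenergic receptor activates the stimulatory G protein, whose alpha subunit turns on adenylyl cyclase. Cyclic AMP releases the catalytic subunits of protein kinase A from regulatory subunits that anchoring proteins hold in place, and phosphodiesterases break the messenger down. The kinase relaxes airway smooth muscle and phosphorylates CREB family factors in the nucleus, while receptor kinases, arrestins and RGS proteins end signalling at the receptor and at the G protein. Contractile receptors of the same cells act through other alpha subunits, which RGS proteins also switch off.

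Of the 47 genes, 4 (8.51%) passed limma's test at an adjusted p under 0.05, beside 7.11% of all rows (484 of 6807). The share of the genes is thus near the background. Creb3l3, Grk5 and Rgs3 rose, where 4.03% of all rows rose, and Prkar2a fell, where 3.09% of all rows fell. At an unadjusted p under 0.05 the count was 14 (29.8%), beside 27.7% of all rows. The fitted log2 ratio was positive for 21 genes and negative for 26, with a median of -0.034 against 0.0018 over all rows. The median size of the ratio was 0.21 for the 47 genes and 0.17 over all rows, and 0 of the 47 genes went beyond 2-fold, where 154 rows (2.26%) did. The ratio had the same sign on all 6 arrays for 10 genes (21.3%), beside 19.6% of all rows.

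**Figure D1:**
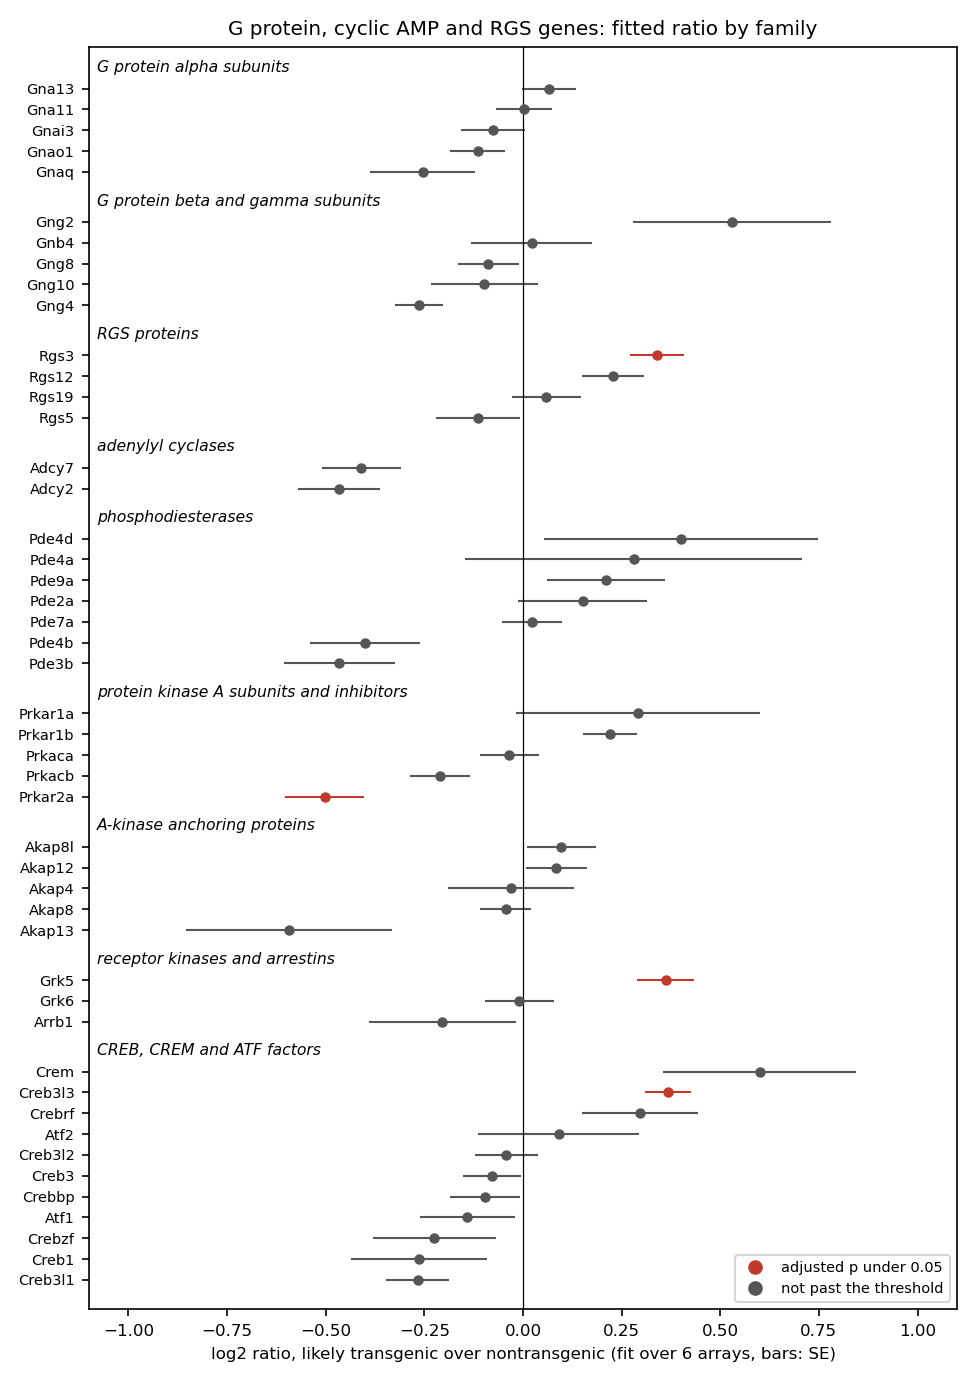
Fitted log2 ratio (x axis, likely transgenic over nontransgenic) of the 47 genes, grouped by family (y axis); points are limma estimates over 6 arrays, bars are SEs and red marks an adjusted p under 0.05. Creb3l3, Grk5 and Rgs3 lie between 0.34 and 0.37, Prkar2a lies at -0.50, and both adenylyl cyclases lie below 0.

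The promoter windows of the 4 genes that passed are shown because the pathway ends at factors that bind the cyclic AMP response element, and that of Prkar1a because it alone among the genes with a window held the full element. Windows were those of RefSeq on GRCm38.p6, 250 bases before to 50 after a start of transcription, 5′ to 3′ on the gene's strand. Capitals mark the 5-base core of the element, TGACG or CGTCA on the other strand, or the full 8-base element TGACGTCA, which holds the core on both strands. Chromosome positions are chr10:81092542-81092841 (minus strand) for Creb3l3, chr19:60889499-60889798 (plus) for Grk5, chr4:62559597-62559896 (plus) for Rgs3, chr9:108691893-108692192 (plus) for Prkar2a and chr11:109650699-109650998 (plus) for Prkar1a.
Creb3l3: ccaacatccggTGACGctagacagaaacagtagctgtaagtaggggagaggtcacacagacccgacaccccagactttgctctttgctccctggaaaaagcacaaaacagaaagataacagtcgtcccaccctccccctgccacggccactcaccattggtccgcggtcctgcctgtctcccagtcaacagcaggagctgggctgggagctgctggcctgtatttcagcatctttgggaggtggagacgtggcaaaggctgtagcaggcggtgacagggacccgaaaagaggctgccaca
Grk5: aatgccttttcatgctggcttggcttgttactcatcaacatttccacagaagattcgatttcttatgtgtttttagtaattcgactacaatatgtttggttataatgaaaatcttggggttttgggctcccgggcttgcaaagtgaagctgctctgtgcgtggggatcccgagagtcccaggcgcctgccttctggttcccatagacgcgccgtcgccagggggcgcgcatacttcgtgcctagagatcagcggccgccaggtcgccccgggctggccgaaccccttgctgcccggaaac
Rgs3: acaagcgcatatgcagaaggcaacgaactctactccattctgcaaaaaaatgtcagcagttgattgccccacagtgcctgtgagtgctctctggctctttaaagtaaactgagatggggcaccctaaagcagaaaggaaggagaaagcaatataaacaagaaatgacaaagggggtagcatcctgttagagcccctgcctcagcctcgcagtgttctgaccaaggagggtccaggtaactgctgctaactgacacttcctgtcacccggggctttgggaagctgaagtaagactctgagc
Prkar2a: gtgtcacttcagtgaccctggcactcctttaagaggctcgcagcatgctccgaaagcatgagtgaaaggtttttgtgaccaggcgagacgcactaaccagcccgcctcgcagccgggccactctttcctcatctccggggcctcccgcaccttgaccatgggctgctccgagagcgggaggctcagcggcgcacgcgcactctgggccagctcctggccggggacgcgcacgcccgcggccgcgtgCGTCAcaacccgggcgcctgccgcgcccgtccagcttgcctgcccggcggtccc
Prkar1a: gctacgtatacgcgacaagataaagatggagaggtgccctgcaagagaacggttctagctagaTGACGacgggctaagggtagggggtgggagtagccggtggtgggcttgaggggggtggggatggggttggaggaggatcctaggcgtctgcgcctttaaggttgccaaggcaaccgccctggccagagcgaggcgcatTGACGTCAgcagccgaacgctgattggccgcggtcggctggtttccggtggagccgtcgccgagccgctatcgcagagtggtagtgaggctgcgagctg
The core began at position -239 from the start in this Creb3l3 window and at -4 in that of Prkar2a. The window of Grk5 and the 2 windows of Rgs3 did not hold these letters, nor did the second window of Creb3l3. Prkar1a held the full element at -49 in the window shown; a window of an overlapping start held the same site. RefSeq windows were found for 39 of the 47 genes, 71 in all, and 20 of these (28.2%) held the core, beside 6837 of 32851 windows of all genes (20.8%). The full element lay in 2 of the 71 windows (2.82%), both of Prkar1a, beside 588 of all windows (1.79%). A match of letters is a description and not a bound site.

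At the receptor, Grk5, a kinase that phosphorylates activated receptors so that arrestin can bind, rose 1.29-fold. Its log2 ratio was 0.55, 0.28, 0.29 and 0.28 on 1A, 1B, 2A and 2B, and 0.30 and 0.45 on the swapped arrays 1C and 2C. All 6 arrays lay above 0, and 1A was the highest of them. The fitted ratio was 0.36 ± 0.072 (SE, n = 6 arrays, adjusted p = 0.0392). The 3 arrays of set 1 gave 0.36 and those of set 2 gave 0.36, each with 1 swapped array that the dye term fits exactly. The call of Grk5 was lost when any 1 array was left out (adjusted p from 0.051 to 0.113).

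Grk6, a second receptor kinase, gave -0.0096 ± 0.087 (adjusted p = 0.95), with 5 of 6 arrays above 0. Arrb1, beta-arrestin 1, which uncouples phosphorylated receptors, had log2 ratios of -0.64, -1.28, -0.081 and -0.022 on the Cy5 arrays and 0.033 and 0.16 on the swapped ones. In this mean of 2 probes, though in neither probe alone, the orientations did not overlap. The fit gave -0.20 ± 0.19 (adjusted p = 0.499). The 2 Arrb1 probes lay on opposite sides, at 0.51 ± 0.28 and -0.92 ± 0.50, so their mean stands for neither. On 1C they read 2.22 and -2.15, the widest gap between them on any array.

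None of the 5 measured alpha subunits passed, with fitted log2 ratios from -0.25 to 0.067 and a lowest adjusted p of 0.265. Gnaq, which couples contractile receptors to phospholipase C, gave -0.33, -0.36 and -0.75 on the set 1 arrays 1A, 1B and 1C, and 0.08, 0.10 and -0.0079 on 2A, 2B and 2C. Every set 1 value lay below every set 2 value, and the fit over all 6 arrays gave -0.25 ± 0.13. The set 1 arrays alone gave -0.55 and the set 2 arrays 0.042. The difference of set 2 minus set 1 was 0.54 ± 0.10 (adjusted p = 0.0772) and did not pass.

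Gna11, the close relative of Gnaq with the same effector, stood at 0.0016 ± 0.071. Gna13 had the highest fitted ratio of the family, 0.067 ± 0.068 (adjusted p = 0.545). It read 0.24, -0.045, 0.14 and 0.21 on the Cy5 arrays and -0.024 and 0.018 on the swapped ones. Gnai3, which inhibits adenylyl cyclase, was above 0 on all 4 Cy5 arrays (0.043 to 0.46) and below 0 on both swapped arrays (-0.45 and -0.31). Its dye coefficient was 0.30 ± 0.081 (adjusted p = 0.188), the lowest adjusted p of any of the 47 genes for the dye. Gnao1, an alpha subunit best known from neurons, was below 0 on 5 arrays and stood at -0.12 ± 0.070 (adjusted p = 0.322).

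Beta and gamma subunits form the dimer that a receptor frees from the alpha subunit; none of the 5 measured passed. Gng4 had the steadiest ratio of the group, at -0.31, -0.34, -0.39 and -0.30 on the Cy5 arrays and -0.27 and -0.12 on the swapped ones. All 6 values were negative, and the fit gave -0.26 ± 0.060, with an adjusted p of 0.0568 that misses the threshold. Gng2, a widely expressed gamma subunit, had 0.26, 0.53, -0.27 and 0.011 on the Cy5 arrays, 1.82 on 1C and 0.034 on 2C. Its fitted ratio of 0.53 ± 0.25 (adjusted p = 0.231) was 0.083 without 1C, the array that stood above all others.

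Gng10, a gamma subunit, was positive on all 3 arrays of set 1 (0.061 to 0.37) and negative on all 3 of set 2 (-0.47 to -0.21). The difference of set 2 minus set 1 was -0.56 ± 0.094 (adjusted p = 0.0746), the lowest adjusted p for the set among the 47 genes. Gng8 and the beta subunit Gnb4 each had 3 positive and 3 negative arrays, with fitted ratios of -0.088 ± 0.077 and 0.022 ± 0.15.

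RGS proteins speed the hydrolysis of GTP on alpha subunits of the inhibitory and Gq classes, and 1 of 4 measured members rose. Rgs3 had a log2 ratio of 0.39, 0.35, 0.28 and 0.11 on 1A, 1B, 2A and 2B, and of 0.35 and 0.45 on 1C and 2C. All 6 arrays were above 0, with 2B the lowest. The fitted ratio was 0.34 ± 0.068 (adjusted p = 0.04), a 1.27-fold rise. Set 1 alone gave 0.36 and set 2 alone 0.32. The call of Rgs3 was lost when any 1 array other than 2C was left out (adjusted p from 0.0809 to 0.124). Without 2C, 1C is the only swapped array and the dye term fits it exactly, so that fit is no check of the call.

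Rgs12, a large RGS protein with further binding domains, gave 0.23 ± 0.079 (adjusted p = 0.136). In the mean of its 2 probes the 2 swapped arrays, at 0.47 and 0.36, lay above all 4 Cy5 arrays (-0.12 to 0.28). Neither Rgs12 probe alone had that order: 1 read -0.43 on 1C and 0.97 on 2C, the other 1.38 and -0.26. Rgs5, a marker of vascular smooth muscle and pericytes, had the lowest ratio of the family. It read -0.25, -0.25 and -0.42 on 1A, 1B and 1C, and 0.14, 0.077 and 0.11 on 2A, 2B and 2C. In the mean of its 3 probes the sets of Rgs5 did not overlap, but in 1 probe they did, at -0.21 on 1C and -0.22 on 2B. The difference of set 2 minus set 1 was 0.41 ± 0.085 (adjusted p = 0.0844) and did not pass. The fit over all arrays gave -0.11 ± 0.11 (adjusted p = 0.509). Rgs19, which acts on inhibitory alpha subunits, had 3 arrays on each side of 0 and a fitted ratio of 0.059 ± 0.087.

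Both measured adenylyl cyclases, the enzymes that make cyclic AMP, were below 0 on every array, and neither passed over all 6. Adcy2 and Adcy7 belong to the cyclases that free beta-gamma dimers can stimulate further. Adcy2 had log2 ratios of -0.25, -0.75, -0.81 and -0.67 on the Cy5 arrays and -0.48 and -0.15 on the swapped ones, and the fit gave -0.47 ± 0.10 (adjusted p = 0.0542). Adcy7 had -0.54, -0.24, -0.75 and -0.52 on the Cy5 arrays, then -0.083 and -0.53, with a fit of -0.41 ± 0.10 (adjusted p = 0.0687). The value of Adcy7 on 1C was the closest to 0 of its 6. The arrays with transgenic RNA in Cy5, fitted alone with no dye term, gave -0.62 for Adcy2 and -0.51 for Adcy7. Both passed there, as did 15.4% of all rows, and a dye bias cannot be told apart in that fit.

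**Figure D2:**
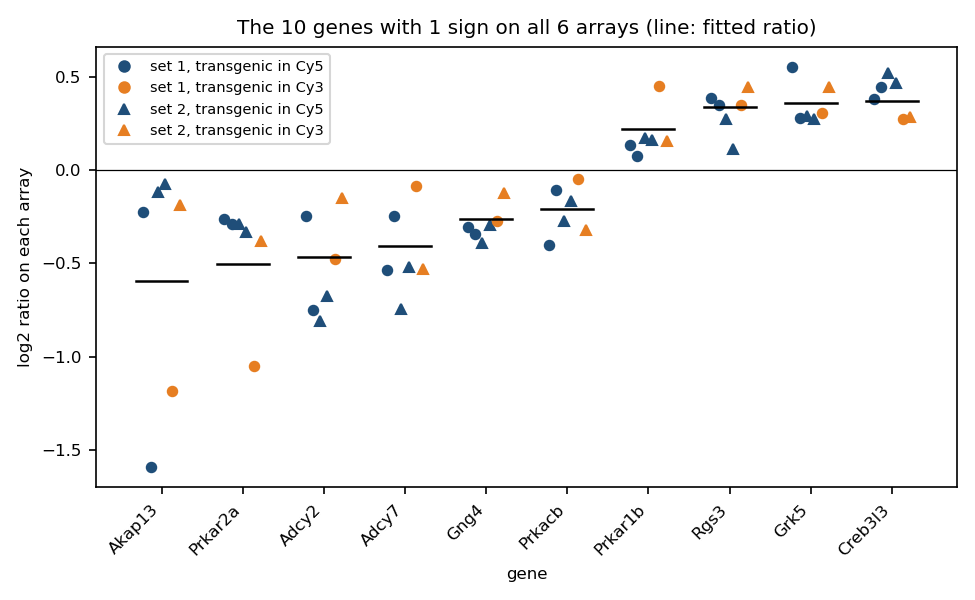
Log2 ratio on each array (y axis) for the 10 genes with the same sign on all 6 arrays (x axis); circles are set 1, triangles set 2, blue transgenic RNA in Cy5, orange in Cy3, and lines the fitted ratio. Gng4, Rgs3, Grk5 and Creb3l3 have their 6 points close together, while Akap13 (-1.60 to -0.074) and Prkar2a (-1.05 to -0.26) are spread by 1 or 2 arrays of set 1. Points are means over the probes of a gene. Neither probe of Prkar1b, and 1 of the 2 of Prkacb, had 1 sign on all 6 arrays.

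Of 7 phosphodiesterases, which degrade cyclic nucleotides, 0 passed, and 5 had a positive and 2 a negative fitted ratio. The sign of the fit was often not that of most arrays. Of the 5 with a positive fit, Pde4d and Pde2a were below 0 on 5 of 6 arrays, Pde9a and Pde7a on 4 and Pde4a on 3. Pde3b, a form inhibited by cyclic GMP, had -0.35, -0.91, -0.55 and -0.40 on the Cy5 arrays, -0.79 on 1C and 0.037 on 2C. Only 2C was above 0, and the fit gave -0.47 ± 0.14 (adjusted p = 0.104). Its 2 probes gave -0.51 and -0.42, and the first passed when probes were fitted singly (adjusted p = 0.0434).

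The cyclic AMP-specific PDE4 enzymes, a main route of its breakdown in airway smooth muscle, had fitted ratios of both signs. Pde4b was negative on all 4 Cy5 arrays (-1.17 to -0.49) and read -0.24 and 0.32 on 1C and 2C. The Cy5 arrays fitted alone gave -0.84, which passed there, as did 15.4% of all rows. The fit over all 6 gave -0.40 ± 0.14 (adjusted p = 0.136). Pde4d had -0.58, -0.89, -0.24 and -0.27 on the Cy5 arrays, 2.63 on 1C and -0.032 on 2C. Array 1C alone was above 0; the fitted Pde4d ratio of 0.40 ± 0.35 (adjusted p = 0.477) was -0.26 without it. Pde4a had 2.65 on 1A and between -0.25 and 0.099 on the other 5 arrays, and the fit gave 0.28 ± 0.43 (adjusted p = 0.69).

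Pde2a, which cyclic GMP stimulates, and Pde9a, which is specific for cyclic GMP, were each highest on 1C, at 1.13 and 1.02. On the other 5 arrays Pde2a lay between -0.30 and -0.092 and Pde9a between -0.24 and 0.16. The 2 probes of Pde9a differed on 1C, at 2.32 and -0.28, and their fitted ratios were 0.57 and -0.15. Pde7a, a cyclic AMP-specific enzyme, was near 0 (0.023 ± 0.076).

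**Figure D3:**
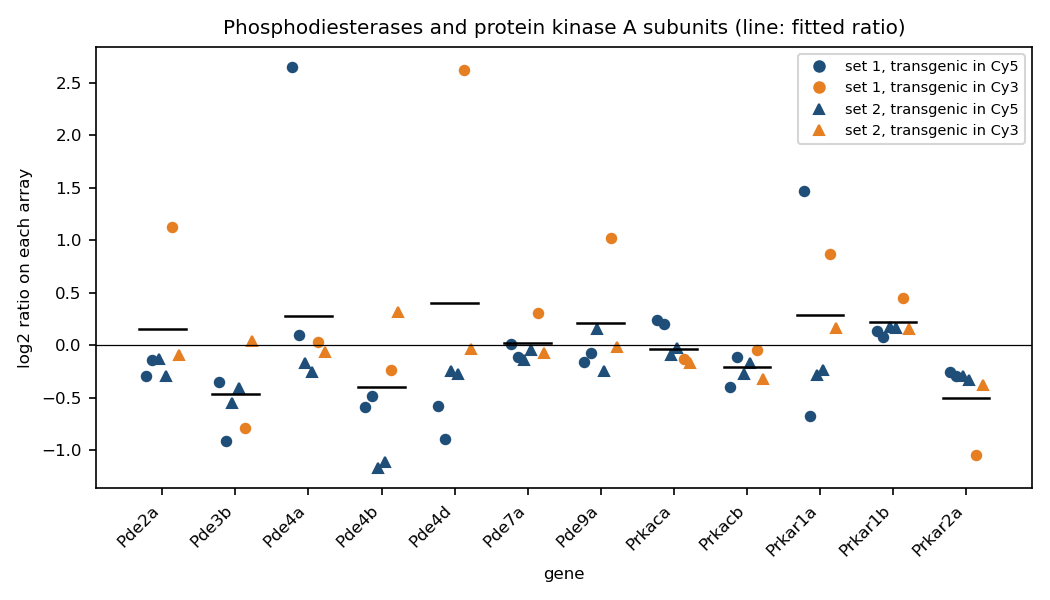
Log2 ratio on each array (y axis) of the 7 phosphodiesterases and 5 protein kinase A subunits (x axis); circles are set 1, triangles set 2, blue transgenic RNA in Cy5, orange in Cy3, and lines the fitted ratio. Single arrays stand far above the rest for Pde4a (2.65 on 1A), Pde4d (2.63 on 1C) and Pde2a (1.13 on 1C), whereas Prkar2a lies below 0 on all 6.

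Of the 5 protein kinase A subunits, 1 fell. Prkar2a, the type II regulatory subunit through which anchoring proteins hold the kinase, had -0.26, -0.29, -0.29 and -0.33 on the Cy5 arrays, -1.05 on 1C and -0.38 on 2C. All 6 arrays were below 0, and 5 of them lay within a narrow band while 1C was far lower. The fitted log2 ratio was -0.50 ± 0.10 (adjusted p = 0.04), a 1.42-fold fall. The call of Prkar2a was lost when any 1 array other than 2C was left out (adjusted p from 0.0762 to 0.117), with no dye term (0.0801), with array weights (0.0692) and with the set as a random block (0.127). Prkar2a stood at -0.66 within set 1, -0.34 within set 2, -0.34 without 1C and -0.67 without 2C. Each of these fits holds 1 swapped array, which the dye term fits exactly, so that array adds nothing to the error. They are no check of the call. On the Cy5 arrays alone, part of the same 6, Prkar2a gave -0.29 (adjusted p = 0.0357), where 15.4% of all rows passed.

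Prkar1b, a type I regulatory subunit, was positive on all 6 arrays in the mean of its 2 probes. It read 0.14, 0.078, 0.17 and 0.16 on the Cy5 arrays and 0.45 and 0.16 on 1C and 2C. The fit gave 0.22 ± 0.068 (adjusted p = 0.109). Neither Prkar1b probe was positive on all 6: 1 read -0.0345 and -0.14 on 1A and 1B, the other -0.023 on 2C. Prkar1a, the other type I subunit and the gene with the full response element above, had 1.47, -0.67, -0.29 and -0.24 on the Cy5 arrays and 0.87 and 0.16 on the swapped ones. The 3 set 1 arrays of Prkar1a thus spanned both the highest and the lowest of its values, and the fit gave 0.29 ± 0.31 (adjusted p = 0.558). Of its 2 probes, 1 stood at 0.57 ± 0.55 and the other at 0.011 ± 0.11.

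The catalytic subunits were closer to 0. Prkaca, the main catalytic subunit, had 0.24, 0.20, -0.091 and -0.025 on the Cy5 arrays and -0.13 and -0.17 on the swapped ones, with a fit of -0.034 ± 0.075 (adjusted p = 0.789). Prkacb was negative on all 6, at -0.40, -0.11, -0.27, -0.17, -0.047 and -0.32 on 1A, 1B, 2A, 2B, 1C and 2C. Its fit gave -0.21 ± 0.076 (adjusted p = 0.145); fitted singly, 1 Prkacb probe passed (-0.39, adjusted p = 0.0317) and the other stood at -0.034.

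None of the 5 anchoring proteins passed. Akap13 was negative on every array, with -0.22, -1.60, -0.12 and -0.074 on the Cy5 arrays and -1.18 and -0.19 on 1C and 2C. Its 2 large values came from set 1, and the fit gave -0.59 ± 0.26 (adjusted p = 0.203), the largest negative ratio among the 47 genes. Akap8l, a nuclear relative of Akap8, had the highest ratio of the family, with -0.11, 0.18, 0.26 and 0.020 on the Cy5 arrays, 0.29 on 1C and -0.076 on 2C (fit 0.097 ± 0.088, adjusted p = 0.492). Akap12, which binds the beta2-adrenergic receptor, was positive on 5 arrays and stood at 0.084 ± 0.078. Akap8, of the nucleus, and Akap4, known from sperm, gave -0.044 ± 0.065 and -0.030 ± 0.16; Akap4 read 0.82 on 2B and below 0 on the other 5.

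Of the 11 genes named for CREB, CREM or ATF factors, 1 rose. Creb3l3, a membrane-bound factor best known from liver and gut, had log2 ratios of 0.38, 0.45, 0.52 and 0.47 on 1A, 1B, 2A and 2B, and of 0.27 and 0.29 on 1C and 2C. All 6 were positive, with the 2 swapped arrays lowest. The fitted ratio was 0.37 ± 0.058 (adjusted p = 0.021), a 1.29-fold rise and the lowest adjusted p of the 47 genes. Both Creb3l3 probes passed when fitted singly, at 0.34 and 0.40. Set 1 alone gave 0.34 and set 2 alone 0.39, and single arrays left out gave 0.36 to 0.38. The call of Creb3l3 was lost when any 1 array other than 2C was left out (adjusted p from 0.0546 to 0.082). Without 2C, 1C is the only swapped array and the dye term fits it exactly, so that fit is no check of the call.

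The kinase's direct targets in the nucleus did not pass. Creb1, the founding member, had -0.17, -1.28, -0.35 and -0.28 on the Cy5 arrays and 0.17 and -0.19 on the swapped ones; the fit gave -0.26 ± 0.17 (adjusted p = 0.353). Crem, whose gene also makes the inducible repressor ICER, had the highest fitted ratio of all 47 genes (0.60 ± 0.24, adjusted p = 0.18). It read 0.97, 0.64 and 0.40 on 1B, 2A and 2B and 0.78 and 1.03 on 1C and 2C, but -0.81 on 1A. Array 1A alone was negative, and Crem stood at 0.79 without it (adjusted p = 0.0355). The single Crem probe does not separate the repressor from the full-length forms here. Atf1, the third factor of this group, was negative on all 3 set 1 arrays and positive on all 3 of set 2, and stood at -0.14 ± 0.12.

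Among the other factors, Creb3l1, a membrane-bound relative, had the lowest ratio, at -0.18, -0.21, 0.046 and 0.063 on the Cy5 arrays and -0.60 and -0.32 on the swapped ones. The swapped arrays were the lowest, and the fit gave -0.27 ± 0.079 (adjusted p = 0.0993). Creb3 was positive on all Cy5 arrays (0.028 to 0.35) and negative on both swapped ones (-0.34 and -0.36), and stood at -0.079 ± 0.073. Creb3l2 stood at -0.043 ± 0.080, Atf2, a target of stress kinases, at 0.091 ± 0.20, and Crebbp at -0.097 ± 0.089. Crebrf and Crebzf gave 0.30 ± 0.15 and -0.22 ± 0.16, with no call.

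The dye coefficient compares ratios between the 2 labelling orientations. It passed for 0 of the 47 genes in limma, beside 0.0147% of all rows (1 row), and 7 (14.9%) had an unadjusted p under 0.05, beside 18.2% of all rows. These were Gnai3, Creb3, Crebrf, Pde4b, Atf2, Pde4d and Creb3l1. Only 1 of the 2 Atf2 probes changed sign between the orientations. Creb3, Gnai3, Gna11 and Arrb1 had 1 sign on all 4 Cy5 arrays and the other on both swapped arrays. They make up 8.51% of the genes, beside 10.4% of all rows with 6 values. For Arrb1 only the mean of its 2 probes had this pattern and neither probe did, and for Gna11 1 of 2 probes did. The 4 arrays with transgenic RNA in Cy5, fitted alone, called 8 genes (17.0%), beside 15.4% of all rows. Creb3l3 and Grk5 rose there, and Adcy2, Adcy7, Gng4, Pde3b, Pde4b and Prkar2a fell; these arrays are part of the fit over all 6, and without the swapped arrays a dye bias cannot be told apart from the transgene.

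**Figure D4:**
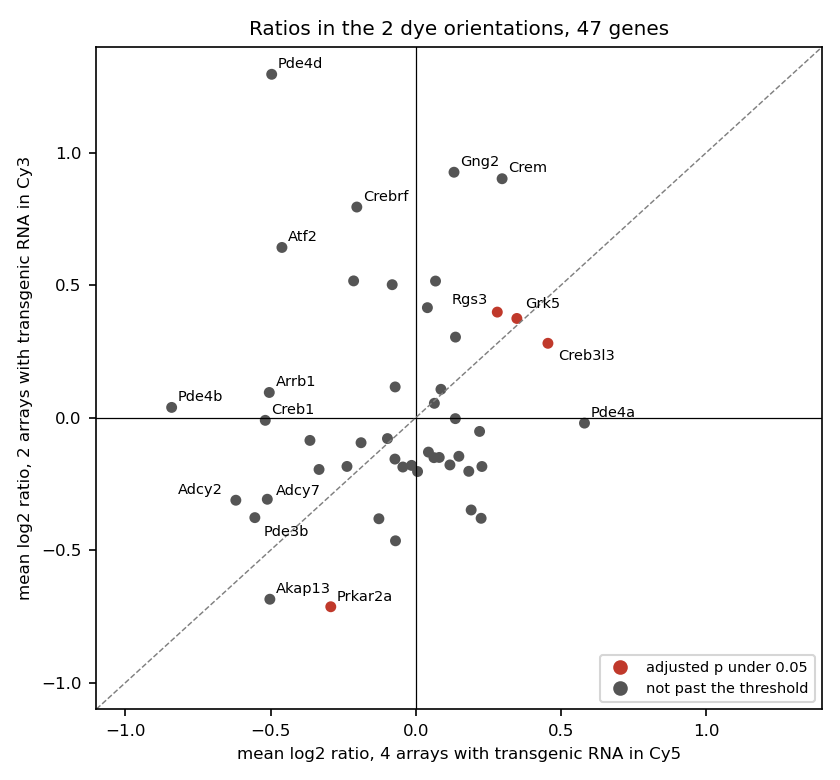
Mean log2 ratio over the 4 Cy5 arrays (transgenic RNA in Cy5) (x axis) against the mean on the 2 arrays with it in Cy3 (y axis), 1 point per gene for all 47 genes; the dashed line marks equality and red an adjusted p under 0.05. Creb3l3, Grk5, Rgs3 and Prkar2a lie in the quadrants of equal sign, while Pde4d (-0.50 and 1.30) and Atf2 (-0.46 and 0.64) change sign between the orientations. For Atf2 the change came from 1 of 2 probes, and the other lay between -0.029 and 0.29 on every array.

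The set term, set 2 minus set 1, passed for 0 of the 47 genes and for 0.0% of all rows in limma. At an unadjusted p under 0.05 it gave 7 genes (14.9%), beside 23.7% of all rows: Gng10, Gnaq, Rgs5, Atf1, Creb3l1, Creb3l2 and Gng2. Atf1, Creb3l2, Gng10, Rgs5 and Pde4a had 1 sign on every set 1 array and the other on every set 2 array, 10.6% of the genes beside 7.12% of all rows with 6 values. For Rgs5 only the mean of its 3 probes had this pattern and no single probe did, and for Creb3l2 1 of 3 probes did. With the set as a random block, which allows arrays of a set to be alike, 0 of the 47 genes passed, beside 2.89% of all rows (197), and 10 (21.3%) had an unadjusted p under 0.05, beside 18.5% of all rows. For scale, the 3 arrays of set 1 alone called 4 of the 47 genes, beside 15.6% of all rows, and those of set 2 alone called 7, beside 13.3%. With the block, the 4 genes called above had adjusted p of 0.0622 for Creb3l3, 0.12 for Rgs3, 0.127 for Prkar2a and 0.126 for Grk5, with the same fitted ratios.

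Across the 47 genes, the 2 arrays most alike were 2A and 2B (Pearson r = 0.815, beside 0.674 over all rows), a description over genes measured on the same arrays, with no p. The corresponding pair of set 1, 1A and 1B, gave r = 0.297 over the 47 genes and 0.545 over all rows, and the swapped pair 1C and 2C gave 0.304 and 0.313. Array 1C gave r of 0.032 to 0.14 with the 4 Cy5 arrays over the 47 genes, and 0.029 to 0.17 over all rows.

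For 21 genes with at least 2 probes, the fitted ratios of the separate probes had the same sign in 13 and both signs in 8. Fitted singly, 7 of the 76 probes passed, among 604 of 8500 probes in all (7.11%): both of Creb3l3, those of Grk5, Rgs3 and Prkar2a, and 1 each of Pde3b and Prkacb. Grk5, Rgs3 and Prkar2a have 1 probe each, so no second probe stands beside their calls.

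**Figure D5:**
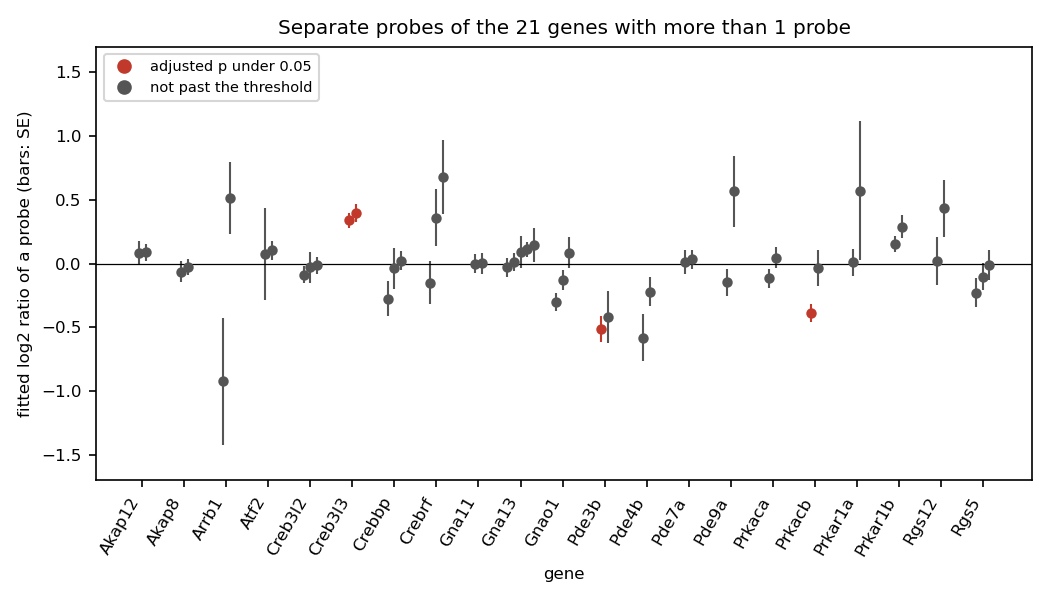
Fitted log2 ratio of each probe (y axis) for the 21 genes with more than 1 probe (x axis); bars are SEs and red marks an adjusted p under 0.05 among all probes. Both probes of Creb3l3 lie at 0.34 and 0.40, and the probes of Arrb1 lie on opposite sides of 0 (0.51 and -0.92).

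Other genes of the pathway were taken from 5 lists, chosen with earlier results of these data known, and most of their members did not pass. Over all rows 4.03% rose and 3.09% fell, with a median of 0.0018. Of 10 measured targets of CREB, 1 rose and 0 fell, with a median of 0.22. That gene was Gadd45b, a growth arrest gene, at 1.23, 1.51, 0.76 and 0.82 on the Cy5 arrays and 1.14 and 0.57 on the swapped ones (fit 0.97 ± 0.14, adjusted p = 0.0168). Every array lay well above 0, and the ratio exceeded that of any of the 47 genes. Of 8 measured G protein-coupled receptors of airway smooth muscle, S1pr3, a receptor for sphingosine 1-phosphate, rose (0.91 ± 0.13, adjusted p = 0.0153, 0.64 to 1.54 over the arrays), and 0 fell; the median was 0.24.

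Among 7 measured further cyclic AMP effectors and kinase substrates, Rap1a, a small GTPase that the cyclic AMP sensor Epac activates, fell. It read -0.086, -0.31, -0.35 and -0.45 on the Cy5 arrays and -0.85 and -0.46 on the swapped ones (fit -0.48 ± 0.088, adjusted p = 0.0318), and 0 of the 7 rose (median -0.088). All 6 values of Rap1a were negative. Of 9 phospholipase C and inositol phosphate genes and 16 further G protein regulators, 0 rose and 0 fell, with medians of 0.0065 and 0.0086.

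Some markers of cell types, from lists also chosen with earlier results known, passed in the same fit. Over all rows 4.03% rose and 3.09% fell there, with a median of 0.0018. Of 4 measured smooth muscle markers 1 rose (Cnn1, 0.59 ± 0.10), with a median of -0.088. Of 9 fibroblast markers, 3 rose (Thy1 at 2.73 ± 0.21, Ly6c1 at 2.07 ± 0.22, Mfap5 at 0.81 ± 0.074) and 1 fell (Col3a1, -1.29 ± 0.10), with a median of 0.70. These exceed every change among the 47 signalling genes. Of 6 neural markers 2 fell (L1cam, Uchl1), of 6 cartilage markers 1 fell (Col11a1), of 5 epithelial markers 1 rose (Cdh1), of 4 skeletal and cardiac muscle markers 1 rose (Mb), and of 6 endothelial and 8 leukocyte markers 0 passed, although all 6 endothelial ratios were negative (median -0.45). Ratios carry no level, so whether a cell type was present could not be checked. The part of these markers in the ratios of the 47 genes was not tested.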

How the data were processed

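RNA of transgenic and nontransgenic cells was reverse transcribed, labelled with Cy3 or Cy5 and hybridised competitively, per the labels' protocols. The authors deposited 1 log2 ratio for each of 8734 probes on each array; for the scanner, background correction, normalization and direction, nothing is given in the sources used here. Array medians lie between -0.0012 and 0.0007, so the deposited log2 values were already centred. Between 8495 and 8555 probes had a value per array; spot intensities were not used, so precision rests on the number of arrays.

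Probes of 1 gene symbol in the platform annotation (7540 probes) were averaged per array; all 47 genes matched the GRCm38.p6 gene table by Entrez ID. Rows needed values on at least 4 arrays and both orientations. The model was limma 3.58.1 in R 4.3.3 (lmFit and eBayes, two-sided) with a transgenic and a dye coefficient, and Benjamini-Hochberg adjustment over all 6807 rows; a set term came from a further fit. Scripts were tested on simulated data. Figures and summaries used Python 3.11.15, pandas 2.3.3, numpy 2.4.6 and matplotlib 3.10.9.

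Values on every array are given for each gene that passed, for the next genes by p with the same sign on every array, for the highest and lowest of each family and for the receptor pathway core (here Prkaca, Prkar1a, Creb1 and Pde4d). Other genes are described by range or fitted ratio. The members, lists and rule were chosen with earlier results of these data known. Alternatives were other filters, scalings, weights, blocks, orientations and arrays left out; fits within 1 set were added after seeing the data.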

Additional observations from a re-analysis of the deposited data

Results flagged for a closer look

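In 11 of the 47 genes (23.4%), 1 array stood apart from the other 5 by more than the limit of Dixon's test, beside 1037 of 6756 rows with 6 values (15.3%). Chance alone would flag about 1 in 20 groups of values. On 1C these were Pde4d at 2.63 (the others -0.89 to -0.032), Pde2a at 1.13, Pde9a at 1.02, Pde7a at 0.31, Prkar1b at 0.45 and Prkar2a at -1.05 (the others -0.38 to -0.26). On 1A they were Pde4a at 2.65 and Crem at -0.81 (the others 0.40 to 1.03), on 1B Creb1 at -1.28, on 2B Akap4 at 0.82 and on 2C Grk6 at -0.45. Of these, Prkar2a is the gene whose call stands in the report. The Pde9a value on 1C is the mean of 2 probes, at 2.32 and -0.28.

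Among the 4 arrays with transgenic RNA in Cy5, 7 of the 47 genes (14.9%) had 1 array apart from the other 3, beside 450 of 6780 rows with 4 values (6.64%). Array 1B stood apart for Akap13 at -1.60, Akap8 at 0.23 and Creb1 at -1.28. Array 1A did so for Pde4a at 2.65, Crebzf at -0.088 (the others -0.46 to -0.45) and Grk5 at 0.55 (the others 0.28 to 0.29), and 2B did so for Akap4 at 0.82. Over both groupings, which share Akap4, Creb1 and Pde4a, 15 of these 18 values came from set 1 (6 on 1C, 5 on 1A and 4 on 1B). The arrays of such values were not counted over all rows. By another measure, the value farthest from the median of the 6 arrays, 1C held 40.6% of all rows and 2C 17.2%. Arrays 1B, 1A, 2A and 2B held 14.4%, 13.1%, 7.8% and 6.86%. Array 1C thus stood out across the whole table, while 2C of set 2 exceeded 1A and 1B. What set these arrays apart was not tested.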

How the results depend on the processing

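The counts of called genes depend on the fit. Over all rows, 484 passed; 197 did with the set as a replicate block, 1049 on the Cy5 arrays alone, 159 with array weights, 1 with the swapped columns turned, 1057 in set 1, 907 in set 2, and 169 to 1689 with 1 array left out (most without 2C). Of the 47 genes, the 3 that rose became 0 with the replicate block, with array weights and with the swapped columns turned, and 0 to 8 with 1 array left out. The 1 that fell became 0 in those 3 fits, 2 in set 1, 3 with no dye term, with arrays scaled and with probes alone, 4 in set 2, 6 on the Cy5 arrays alone, and 0 to 6 with 1 array left out. The dye count of 0 became 4 with the swapped columns turned, 2 in set 2 and 0 to 6 with 1 array left out. The median of the 47 genes, -0.034, was 0.0042 with no dye term and 0.037 in set 1. With the swapped columns turned, 3 called genes changed sign: Rgs3 to -0.059, Prkar2a to 0.21 and Grk5 to -0.013 (adjusted p of 0.65, 0.315 and 0.932). The cause was not tested, other than that turning 2 columns exchanges the transgenic and dye terms and that fewer arrays enter some fits. Fits within 1 set have 3 arrays for 2 coefficients. In these fits, and in those without 1C or without 2C, only 1 swapped array is left. The dye term fits that array exactly, so it adds nothing to the error, and calls of these fits are no check. Floor values set to missing, robust variances and other minimum numbers of arrays left the 4 called genes called. Of the probe values of the 47 genes, 0 lay at the floor, and all 47 had values on all 6 arrays. The floor and minimum settings could therefore reach these genes only through the other rows, and are no check of the calls. The number of arrays limits precision, and signal over background is unknown.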
